A study of Mus musculus with 35 samples.

Results

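Imprinted genes were followed in 27 bulk RNA-seq libraries of mouse epiblast and of its culture models. They were chosen by symbol, as genes well established to be imprinted in mouse, and split by the parental allele known to be expressed. All 42 were found, each on 1 row, among the 54446 genes of the table. Of these, 25 are known as paternally expressed and 17 as maternally expressed, and they lie in 22 imprinted clusters on autosomes. By annotation 35 were protein-coding and 7 were non-coding, namely H19, Meg3, Rian, Mirg, Kcnq1ot1, Airn and Peg13. The values do not separate the 2 alleles, so "paternally" and "maternally" expressed name what is known of a gene and not what was measured here.

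Genomic imprinting marks the DNA of egg and sperm differently, and the mark, a differentially methylated region, is kept on 1 parental chromosome after fertilization while most other methylation is erased and rebuilt around implantation. Each region controls a cluster of neighbouring genes, often through a long non-coding RNA or an insulator, so that paternally and maternally expressed genes can lie side by side. Many paternally expressed genes, such as the growth factor gene Igf2, favour growth of the embryo, and many maternally expressed genes, such as Igf2r, Cdkn1c, Grb10 and Phlda2, restrain it. Imprinted genes are known to lose or gain expression in pluripotent cells in culture.

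There were 3 libraries in each of 9 groups, all of them wild-type apart from the reporter alleles named below. The 5 in vivo groups were the inner cell mass (ICM) of E3.5 blastocysts and the epiblast at daily steps from E4.5 to E7.5, the stage of gastrulation, of CD-1 embryos of both sexes without treatment. By the study's methods the ICM at E3.5 was cut free with a laser, whereas E4.5 blastocysts underwent immunosurgery and cells without the primitive endoderm reporter Pdgfrα:H2B-GFP were then picked by hand. By the same methods embryos came from CD1 or reporter mice, and the reporter line served at E4.5. Mouse line and stage may thus have changed together at the steps to and from E4.5. Later epiblasts were dissected manually, without the allantois at E7.5, and each library pooled several embryos. The 4 cultures were 2D epiblast stem cells (EpiSCs), which the labels give as embryonic stem cells (ESCs) converted with FGF2 and ActivinA, epiblast-like cells (EpiLCs), which are ESCs kept for 48 h in the same factors, and 3D EpiSCs of 2 sources, grown in Matrigel with FGF2, ActivinA, the tankyrase inhibitor XAV and the BMP antagonist Noggin. ESC-derived 3D EpiSCs came from an ESC line, whereas the embryo-derived ones were explanted from CD1 or LifeAct-GFP epiblasts at E5.5, so that source and genetic background changed together, and dimension and medium changed together between 2D and 3D cultures. The labels do not say whether replicates were separate derivations, and p-values measure only the spread between these libraries.

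Expression is given as TPM, the count of transcripts per 1000000, a level scaled for length within a library. Each library sums to 1000000, so depth is not known from the values, and between 20324 and 26751 genes were above 0. In vivo libraries were made from total RNA and in vitro ones by poly-A capture, so levels in embryo and culture are set side by side without a test. RNA of E3.5 and E4.5 was fragmented for 6 min and that of later stages for 4 min, a change that cannot be told apart from the step from E4.5 to E5.5. Markers of epiblast were present in every group (sums of 6 genes of 355 to 3058 TPM). The in vivo libraries also held RNA of genes that mark other lineages: Krt8, a trophectoderm keratin, was at 750.2 to 1035 TPM at E3.5 and E4.5, and Afp, a visceral endoderm gene, was at 75.5 to 128 TPM from E5.5 to E7.5, against 0 to 0.128 TPM of Afp in cultures. Trophectoderm markers were not confined to embryos, since the 9 listed summed to 569 to 731 TPM in 2D EpiSCs. Krt8 was called lower in each of the other cultures than in 2D EpiSCs. The cells that gave the Krt8 RNA were not tested. ESC-derived 3D replicate 3 stood apart from replicates 1 and 2, with the endoderm gene Sox17 at 6.73 TPM against 0.262 and 0.235 TPM.

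The sequences just before the start of 5 members are shown as a selection of paternally expressed genes. Nnat, Nap1l5, Slc38a4 and Mcts2 were lowest in embryo-derived 3D EpiSCs as described further on (Mcts2 without a call), and Peg3 shares its start region with Usp29. Some members that are not shown, such as Grb10 and Igf2, had larger differences between cultures than those shown apart from Nnat. They are RefSeq windows of 250 bases on GRCm38, the build of mm10, written 5′ to 3′ on the strand of the gene, and those of Mcts2 and Peg3 are cut to the 137 and 238 bases that also lie before the start of the gene in the deposited table. Capitals mark TGCCGC or its reverse complement GCGGCA, the core that the imprint-protecting zinc finger protein ZFP57 is known to bind when it is methylated. Both strands were searched and no other motif was.
Nnat, chr2:157559828-157560077, plus strand: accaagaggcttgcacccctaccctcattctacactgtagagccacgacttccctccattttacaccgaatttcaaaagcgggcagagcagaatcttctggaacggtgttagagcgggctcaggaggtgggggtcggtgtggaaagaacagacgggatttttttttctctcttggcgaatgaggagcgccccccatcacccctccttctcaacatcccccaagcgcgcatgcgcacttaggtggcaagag
Nap1l5, chr6:58907127-58907376, minus strand: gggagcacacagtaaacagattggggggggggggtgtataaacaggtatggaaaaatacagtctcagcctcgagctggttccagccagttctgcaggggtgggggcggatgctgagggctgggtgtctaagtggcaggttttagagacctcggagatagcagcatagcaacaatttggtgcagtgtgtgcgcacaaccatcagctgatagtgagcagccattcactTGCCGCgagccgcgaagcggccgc
Mcts2, chr2:152686898-152687034, plus strand: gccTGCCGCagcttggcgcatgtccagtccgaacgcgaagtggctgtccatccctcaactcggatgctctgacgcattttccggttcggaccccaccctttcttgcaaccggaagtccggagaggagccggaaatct
Slc38a4, chr15:97055957-97056206, minus strand: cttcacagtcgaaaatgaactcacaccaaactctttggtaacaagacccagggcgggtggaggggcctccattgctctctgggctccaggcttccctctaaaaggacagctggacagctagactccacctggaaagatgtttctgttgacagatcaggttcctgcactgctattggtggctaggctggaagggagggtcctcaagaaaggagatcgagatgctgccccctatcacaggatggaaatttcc
Peg3, chr7:6730432-6730669, minus strand: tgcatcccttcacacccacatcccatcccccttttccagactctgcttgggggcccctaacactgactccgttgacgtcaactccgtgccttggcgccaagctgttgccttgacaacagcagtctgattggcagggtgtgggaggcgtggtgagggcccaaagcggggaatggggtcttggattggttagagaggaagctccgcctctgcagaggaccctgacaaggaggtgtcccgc
The whole windows of Nap1l5 and Mcts2 each held the core once and those of Nnat, Slc38a4 and Peg3 did not hold it. Of 34 members with a RefSeq window, 5 held it (14.7%; also Meg3, Plagl1 and Zim1), against 8.68% of 32817 windows of all genes. The windows differed in CpG dinucleotides, with 20 in Mcts2, 12 in Nnat, 10 in Nap1l5, 8 in Peg3 and 3 in Slc38a4, against a median of 6 over all genes. The window of Usp29, read on the opposite strand, shares 163 bases with that of Peg3. A match is a description of the letters in these windows and not evidence of binding, and differentially methylated regions can lie outside them.

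**Figure D1:**
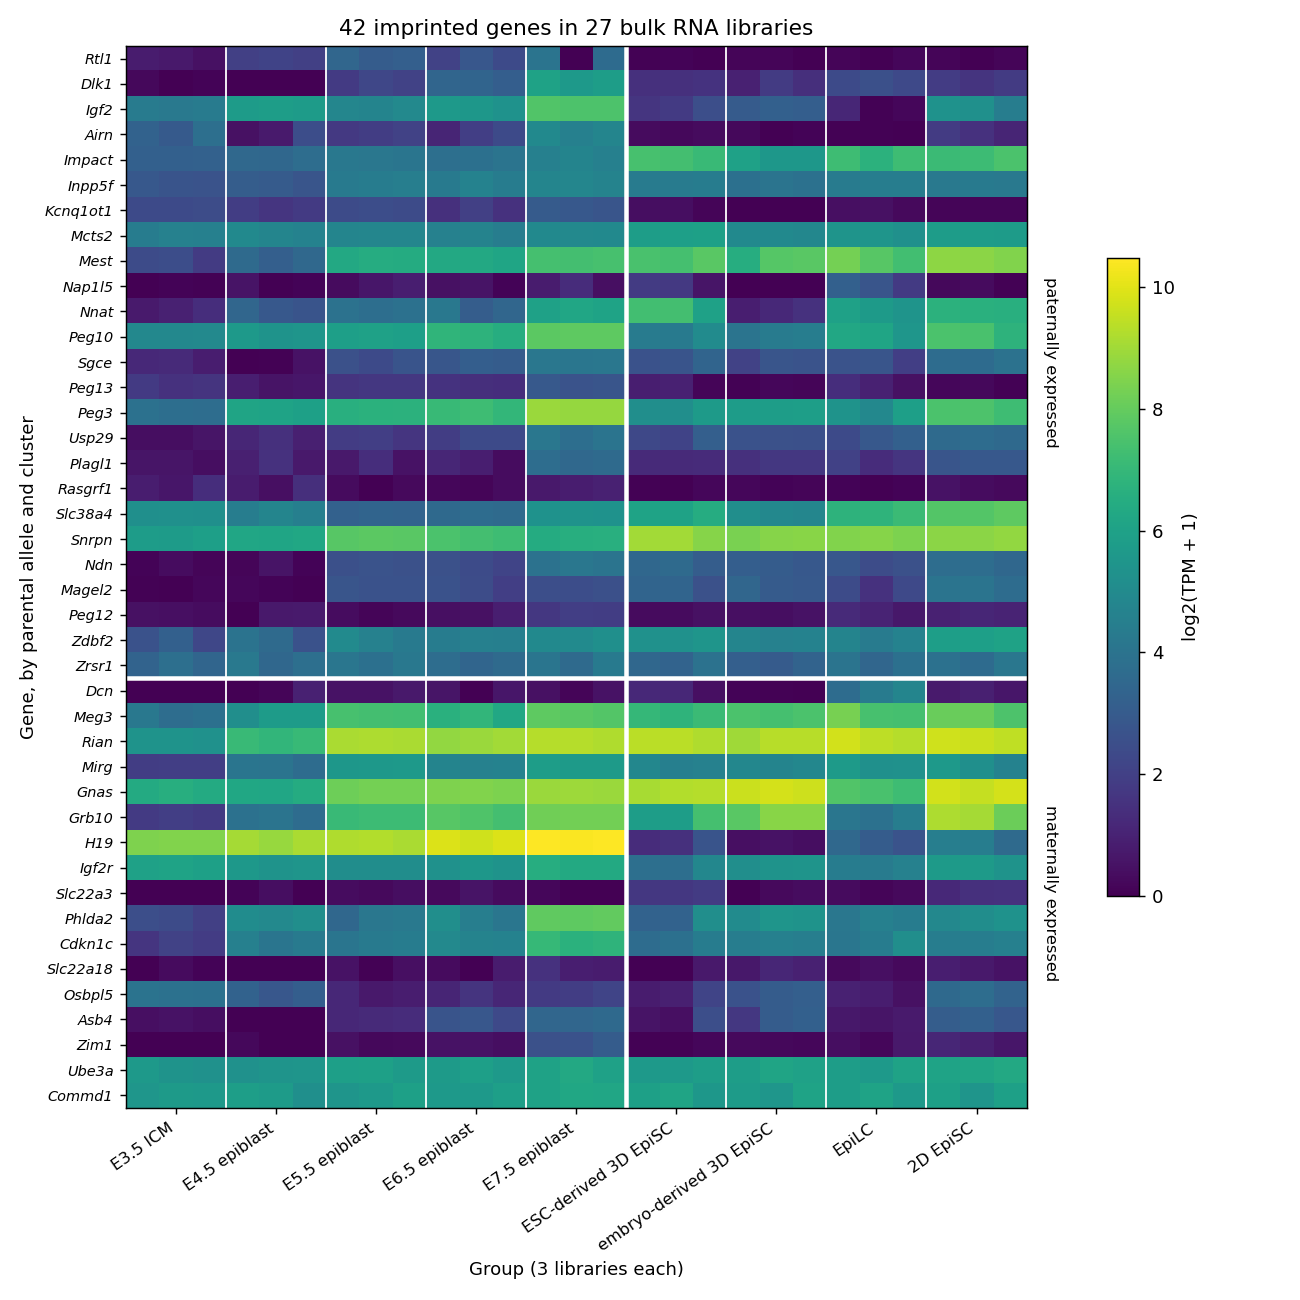
Levels of the 42 imprinted genes, as log2(TPM + 1) by color, in the 27 libraries (columns, 3 per group; rows by known parental allele and cluster). H19 is bright in all in vivo libraries and darker in all cultures, Nnat and Nap1l5 are dark in embryo-derived 3D EpiSCs, and most rows are brightest at E7.5 among the stages and in 2D EpiSCs among the cultures.

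Among the stages, most of the 42 imprinted genes were at their highest at E7.5. The highest of the 5 stage means was at E7.5 for 35 of the 42 genes, 21 paternally and 14 maternally expressed. How many of all genes peaked at E7.5 was not counted, and from E6.5 to E7.5 12.9% of all genes tested rose and 1.99% fell. The summed level of the 42 genes was 909 TPM at E3.5, 1352 TPM at E4.5, 2662 TPM at E5.5, 2957 TPM at E6.5 and 5208 TPM at E7.5, of which H19 alone made 1422, 1369 and 1399 TPM in the 3 E7.5 libraries. The number with a mean above 2 TPM was 26, 26, 32, 32 and 37 of 42 from E3.5 to E7.5. Successive stages were compared on log2(TPM + 1) in a single limma fit of the 15 in vivo libraries, and calls needed an adjusted p under 0.05 with a log2 fold change beyond 1 in size. The 15214 autosomal genes with more than 2 TPM in at least 3 of these libraries were tested, and 37 members were among them. Nap1l5, Slc22a18, Slc22a3, Rasgrf1 and Dcn did not pass that filter.

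From the E3.5 ICM to the E4.5 epiblast, 10 of the 37 tested members rose and 1 fell, while 5.63% of all genes tested rose and 12.1% fell. Of the 10, 6 were maternally and 4 paternally expressed. Peg3, a zinc finger gene (chr7:6703892-6730431), was at 13.9, 12.6 and 12.2 TPM at E3.5 and at 69.3, 66.4 and 61.1 TPM at E4.5. The ranges of Peg3 did not overlap, a log2 fold change of 2.26 ± 0.09 (SE, adjusted p = 9.7e-10). Among the growth-restraining maternal genes, Phlda2, which limits placental growth, went from 4.69, 4.24 and 2.95 TPM to 32.9, 29.2 and 34.7 TPM, a log2 fold change of 2.76 ± 0.25 (SE, adjusted p = 1.72e-06). Cdkn1c, an inhibitor of cyclin-dependent kinases in the same Kcnq1 cluster, was at 2.08, 3.21 and 2.60 TPM and then 22.9, 15.99 and 19.2 TPM, a log2 fold change of 2.48 ± 0.16 (SE, adjusted p = 5.06e-08). Grb10, an adaptor that damps signalling from insulin and IGF receptors, was at 2.41, 2.87 and 2.47 TPM and then 14.2, 15.5 and 11.99 TPM, a log2 fold change of 2.05 ± 0.11 (SE, adjusted p = 1.38e-08). These 3 genes were higher in every E4.5 library than in any E3.5 library.

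The growth factor gene Igf2 and the neuronatin gene Nnat were among the paternally expressed genes that rose at this step. Igf2 was at 19.6, 17.9 and 19.7 TPM at E3.5 and at 52.9, 55.5 and 52.03 TPM at E4.5, a log2 fold change of 1.44 ± 0.09 (SE, adjusted p = 5.48e-08). Nnat, which encodes a small membrane proteolipid, was at 0.698, 0.936 and 1.61 TPM and then 9.83, 6.31 and 5.52 TPM, a log2 fold change of 1.97 ± 0.26 (SE, adjusted p = 4.61e-05). Mest, which encodes a membrane protein with a hydrolase fold, was at 4.19, 4.51 and 2.55 TPM and then 11.3, 7.93 and 10.6 TPM, a log2 fold change of 1.22 ± 0.16 (SE, adjusted p = 3.94e-05). The 3 maternally expressed non-coding RNAs of the Dlk1-Meg3 cluster, described below as a group, rose too. Airn, the paternal non-coding RNA antisense to Igf2r, fell from 8.91, 6.73 and 13.2 TPM to 0.370, 0.703 and 4.505 TPM, a log2 fold change of -2.13 ± 0.46 (SE, adjusted p = 0.00191), with 1 E4.5 library far above the other pair. Markers moved in these samples as well. Of the 9 primitive and visceral endoderm markers 5 fell, Gata6 from 112 to 122 TPM to 7.60 to 9.48 TPM, and their sum went from 413 to 418 TPM to 153 to 179 TPM, at the step where cells without the endoderm reporter were picked. Of 6 tested trophectoderm markers 2 fell, with Cdx2 going from 157 to 168 TPM to 22.2 to 26.3 TPM, and 2 rose, Elf5 (log2 fold change of 1.33) and Tfap2c (37.6 to 43.8 TPM to 121 to 125 TPM), while the 9 listed ones summed to 3122 to 3185 TPM at E3.5 and 2750 to 2924 TPM at E4.5. Their part in these differences was not tested, and in bulk tissue fewer cells of a type and less RNA per cell cannot be told apart.

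From E4.5 to E5.5, across implantation, 14 of 37 tested members rose and 3 fell, beside 13.7% of all genes rising and 9.2% falling. The 14 were 8 paternally and 6 maternally expressed genes. At this step all genes tested had a median log2 fold change of 0.15, and after rescaling of each library by its median ratio, which brought that median to 0.02, 14 members were called higher and 4 lower, Igf2 being the fourth. The split of all genes went from 2089 higher and 1400 lower to 1826 and 1641 in this way.

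The Snrpn-Ube3a cluster on chromosome 7, the counterpart of the Prader-Willi and Angelman region, rose at this step in 3 of its paternally expressed genes, Ndn, Magel2 and Snrpn. Ndn and Magel2, members of the MAGE family, were at 0 to 0.457 TPM in all 6 earlier libraries. Ndn was at 4.89, 5.38 and 5.004 TPM at E5.5, a log2 fold change of 2.34 ± 0.14 (SE, adjusted p = 2.39e-08). Magel2 was at 5.76, 5.30 and 5.25 TPM at E5.5, a log2 fold change of 2.58 ± 0.15 (SE, adjusted p = 1.43e-08). Both stood above every earlier library. Snrpn, a spliceosomal Sm protein gene, went from 72.6, 71.2 and 74.4 TPM to 215, 227 and 221 TPM, a log2 fold change of 1.59 ± 0.08 (SE, adjusted p = 8.52e-09), and its reads may be shared with Snurf, which overlaps it on the same strand. Ube3a, the ubiquitin ligase gene that is silenced on the paternal chromosome in neurons, was at 38.4, 41.6 and 42.9 TPM and then 59.9, 61.6 and 51.6 TPM and was not called, a log2 fold change of 0.48 ± 0.13 (SE, adjusted p = 0.0065).

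The non-coding RNAs of the Dlk1-Meg3 cluster on chromosome 12 rose over both of these early steps. Meg3, Rian and Mirg are maternal non-coding RNAs read from the same strand, and Rian and Mirg hold snoRNAs and many miRNAs. Rian was at 40.9, 40.5 and 38.7 TPM at E3.5, 137, 119 and 131 TPM at E4.5 and 562, 587 and 566 TPM at E5.5. Its log2 fold change was 1.66 ± 0.08 (SE, adjusted p = 7.21e-09) for the first step and 2.14 ± 0.08 (SE, adjusted p = 4.88e-10) for the second. Meg3 was at 17.5, 12.5 and 13.5, then 35.6, 52.9 and 52.1, then 172, 161 and 158 TPM, and Mirg at 2.71, 2.79 and 2.87, then 15.6, 15.4 and 12.1, then 46.2, 47.5 and 49.6 TPM. Meg3 had log2 fold changes of 1.62 and 1.80, and Mirg of 2.01 and 1.67, all called. The levels of the 3 RNAs did not overlap between any of these stages. They share a primary transcript by what is known of the locus, so they are not independent of each other. Dlk1, the paternal protein-coding gene of the cluster, related to Notch ligands, was at 0 TPM in the 3 E4.5 libraries and at 2.48, 3.69 and 3.15 TPM at E5.5, a log2 fold change of 2.03 ± 0.13 (SE, adjusted p = 4.04e-08). Rtl1, derived from a retrotransposon and known to be paternal, was at 3.01, 3.27 and 2.96 TPM and then 10.02, 7.16 and 8.11 TPM, a difference that was not called, a log2 fold change of 1.20 ± 0.76 (SE, adjusted p = 0.204), but passed when only the libraries of these 2 stages were fitted (adjusted p = 6.00e-04). Rtl1 was at 15.4, 0 and 11.6 TPM at E7.5, where 1 library listed it at 0, and it passed the threshold from E6.5 to E7.5 without that library (log2 fold change 1.42, adjusted p = 4.42e-04) but not with it, a log2 fold change of 0.14 ± 0.76 (SE, adjusted p = 0.908).

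Mest and Grb10 had the largest fold changes among the paternally and the maternally expressed members between E4.5 and E5.5. Mest was at 79.4, 89.7 and 85.7 TPM at E5.5, a log2 fold change of 2.99 ± 0.16 (SE, adjusted p = 7.39e-09). Grb10 was at 135, 145 and 145 TPM, a log2 fold change of 3.26 ± 0.11 (SE, adjusted p = 1.36e-10). Gnas, which encodes the stimulatory G protein alpha subunit and whose row pools transcripts of different imprinting, went from 75.4, 72.8 and 84.96 TPM to 289, 308 and 315 TPM, a log2 fold change of 1.96 ± 0.08 (SE, adjusted p = 6.64e-10). Sgce, the epsilon-sarcoglycan gene, went from 0, 0.0380 and 0.439 TPM to 5.14, 4.14 and 5.63 TPM, a log2 fold change of 2.38 ± 0.16 (SE, adjusted p = 6.86e-08), and Asb4, a ubiquitin ligase adaptor in the same Peg10 cluster, from 0 TPM in every E4.5 library to 1.27, 1.37 and 1.49 TPM, a log2 fold change of 1.25 ± 0.11 (SE, adjusted p = 1.01e-06). Inpp5f, an inositol phosphatase gene of which only a short transcript is imprinted, was at 7.61, 7.08 and 5.87 and then 18.5, 19.97 and 21.3 TPM, a log2 fold change of 1.42 ± 0.11 (SE, adjusted p = 3.79e-07). Zdbf2 was at 14.9, 11.2 and 5.22 and then 31.7, 23.6 and 18.5 TPM, a log2 fold change of 1.23 ± 0.32 (SE, adjusted p = 0.00541). The call of Zdbf2 was lost without E4.5 replicate 3 (log2 fold change 0.84, adjusted p = 0.018).

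The 3 members that fell at this step were Slc38a4, Osbpl5 and Phlda2. Slc38a4, a paternally expressed amino acid transporter gene, went from 20.7, 26.3 and 22.2 TPM to 8.58, 9.25 and 9.23 TPM, a log2 fold change of -1.26 ± 0.09 (SE, adjusted p = 8.3e-08). Osbpl5, an oxysterol-binding protein gene of the Kcnq1 cluster, went from 8.89, 6.11 and 7.88 TPM to 1.27, 0.648 and 0.803 TPM, a log2 fold change of -2.18 ± 0.17 (SE, adjusted p = 3.11e-07). Phlda2 was at 10.4, 17.02 and 18.05 TPM, a log2 fold change of -1.08 ± 0.25 (SE, adjusted p = 0.00299), and no longer passed the threshold without E5.5 replicate 1 (log2 fold change -0.84). All 3 are known for expression in placenta or other extra-embryonic tissue. The 9 trophectoderm and extra-embryonic ectoderm markers summed to 2750 to 2924 TPM at E4.5 and to 329 to 363 TPM at E5.5, whereas the 9 primitive and visceral endoderm markers went from 153 to 179 TPM to 685 to 740 TPM. Whether either list bears on these genes was not tested.

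Between E5.5 and E6.5 few genes of any kind moved, 0.756% upwards and 1.22% downwards, and 2 of 37 tested members were called, Dlk1 and Asb4, both higher. Dlk1 was at 9.73, 9.45 and 7.72 TPM at E6.5, a log2 fold change of 1.28 ± 0.13 (SE, adjusted p = 9.91e-05). Asb4 was at 5.62, 6.14 and 4.03 TPM, a log2 fold change of 1.38 ± 0.11 (SE, adjusted p = 1.45e-05). No member was called lower by limma, with or without an intensity trend, and 8 were lower at an unadjusted p under 0.05, a count that was not made for all genes. The 3 E6.5 libraries of Dlk1 and of Asb4 lay above all E5.5 libraries.

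**Figure D2:**
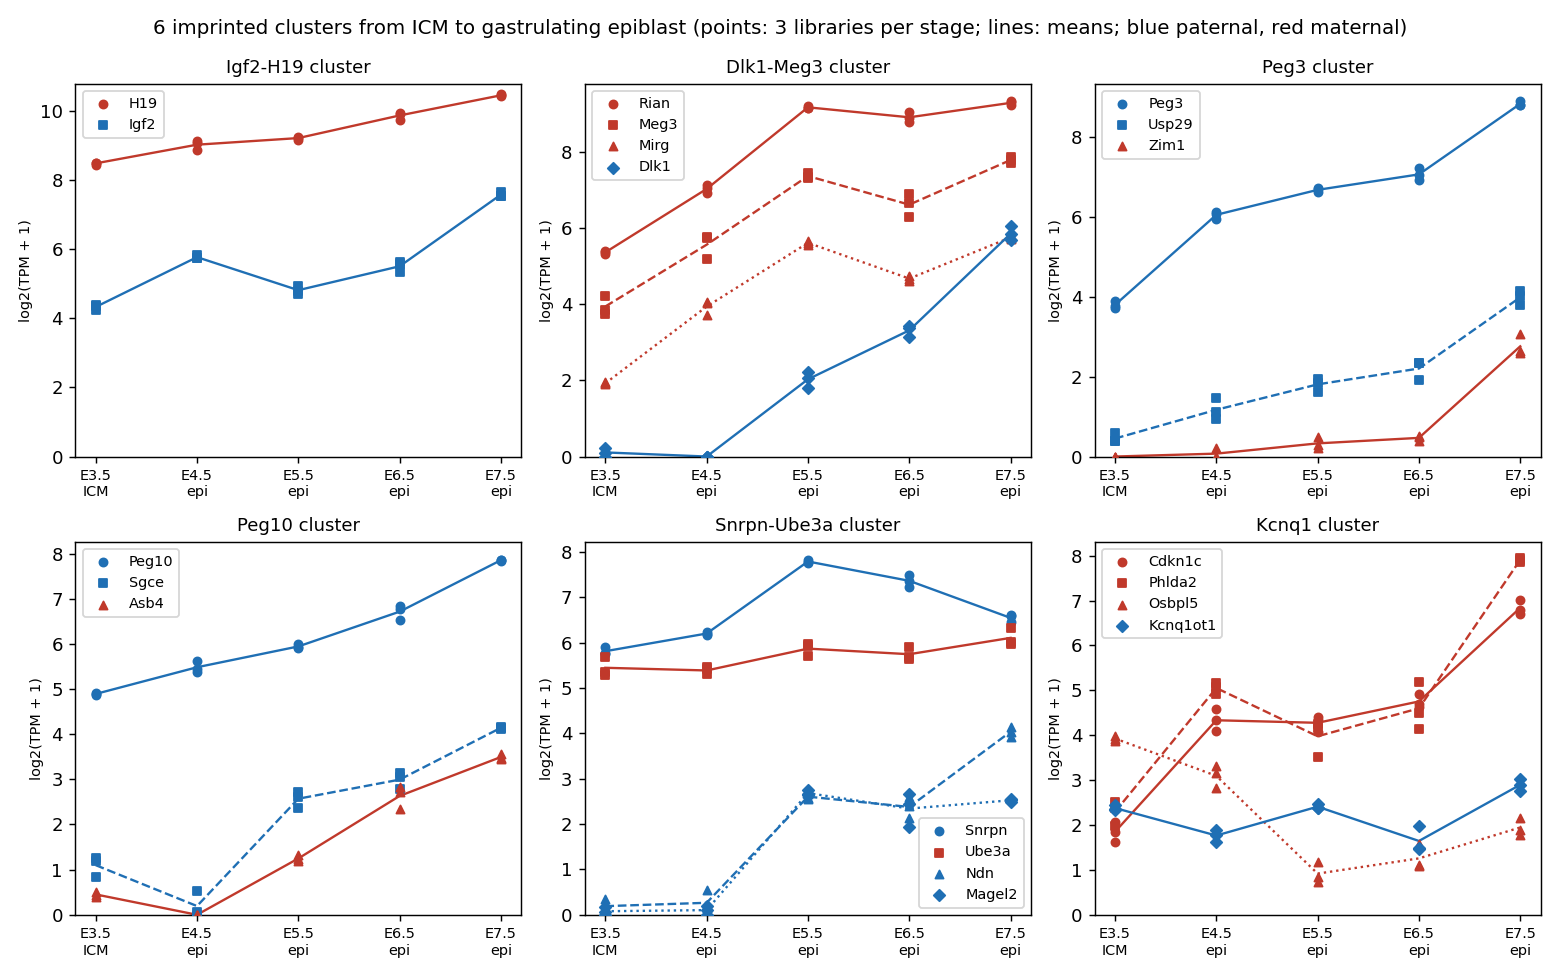
Levels of members of 6 imprinted clusters at the 5 in vivo stages, as log2(TPM + 1), with each library as a point, stage means joined by lines, paternally expressed genes in blue and maternally expressed genes in red. Ndn, Magel2 and Dlk1 lie near 0 before E5.5, Rian, Meg3 and Mirg climb to E5.5, and Peg3, Igf2, Cdkn1c, Phlda2 and Zim1 have their highest points at E7.5.

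From E6.5 to E7.5, 21 of 37 tested members were called higher (15 of 23 paternally and 6 of 14 maternally expressed genes) and none was called lower, where 12.9% of all genes tested rose and 1.99% fell. A single member was lower at an unadjusted p under 0.05, and an intensity trend in limma gave 21 and 0 as well. Of the 21, Zim1, Plagl1 and Peg12 exceeded 2 TPM in the E7.5 libraries alone of the in vivo ones and so were tested only because they were high there. They are described without a test, and 18 calls do not depend on the filter in this way. The whole table shifted at this step, with a median log2 fold change of 0.31 over all genes, of 1.12 over the tested members and of 1.04 without those 3 genes. After rescaling to a median of 0, the median of the members was 0.77, 14 were called higher and 1 lower, and the split of all genes went from 1960 higher and 303 lower to 1169 higher and 514 lower. Peg10, Sgce, Mest, Meg3, Mirg, Igf2r and Kcnq1ot1 lost their call in this way, and Snrpn became the member called lower.

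The largest rise at E7.5 was that of Phlda2, which was at 35.4, 21.4 and 16.5 TPM at E6.5 and at 239, 232 and 246 TPM at E7.5, a log2 fold change of 3.31 ± 0.25 (SE, adjusted p = 6.05e-07). Its cluster neighbour Cdkn1c was at 29.3, 24.98 and 23.9 and then 129, 103 and 110.4 TPM, a log2 fold change of 2.09 ± 0.16 (SE, adjusted p = 5.16e-07). Kcnq1ot1, the paternal non-coding RNA that silences this cluster in cis, was at 1.75, 2.95 and 1.81 and then 7.12, 6.46 and 5.81 TPM, a log2 fold change of 1.25 ± 0.13 (SE, adjusted p = 1.02e-05). The ranges at E6.5 and E7.5 did not overlap for these genes of both parental classes.

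Igf2 and its receptor gene Igf2r, an embryonic growth factor and the receptor that clears it, both rose at E7.5. Igf2 was at 48.04, 46.03 and 39.5 TPM and then 199, 186 and 185 TPM, a log2 fold change of 2.07 ± 0.09 (SE, adjusted p = 4.13e-09). Igf2r was at 38.9, 45.4 and 40.5 TPM and then 91.001, 81.8 and 81.4 TPM, a log2 fold change of 1.01 ± 0.09 (SE, adjusted p = 2.06e-06). That call is at the edge of the fold threshold and was lost without E7.5 replicate 1 (log2 fold change 0.96), without E6.5 replicate 1 (0.96) and without E6.5 replicate 3 (0.99). Airn, the silencer of Igf2r, was at 1.10, 2.88 and 4.18 TPM and then 30.3, 22.3 and 25.9 TPM, a log2 fold change of 2.95 ± 0.46 (SE, adjusted p = 2.21e-04). Airn overlaps Igf2r on the opposite strand, and no strand setting of the quantification is given in the sources used here, so their reads cannot be fully told apart. H19, the maternal non-coding RNA next to Igf2, was at 346, 362 and 360.4 TPM at E3.5, 531, 467 and 561 TPM at E4.5, 599, 607 and 571 TPM at E5.5, 983, 852 and 967 TPM at E6.5 and 1422, 1369 and 1399 TPM at E7.5. H19 had the highest mean level of all members at every stage, yet none of its steps passed the fold threshold, the largest being 0.65 from E5.5 to E6.5.

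In the Peg3 cluster all 3 members were at their highest at E7.5. Peg3 was at 132, 149 and 120.0 TPM and then 476, 445 and 448 TPM, a log2 fold change of 1.77 ± 0.09 (SE, adjusted p = 1.78e-08). Usp29, a ubiquitin protease gene that starts beside Peg3 on the other strand, was at 2.79, 4.11 and 4.06 and then 16.8, 12.8 and 15.3 TPM, a log2 fold change of 1.78 ± 0.16 (SE, adjusted p = 3.1e-06). The maternal zinc finger gene Zim1 was at 0.423, 0.409 and 0.318 and then 5.01, 5.21 and 7.34 TPM, a log2 difference of 2.29. Peg10, derived from a retrotransposon and needed for the placenta, was at 113, 108 and 91.7 and then 228, 232 and 231 TPM, a log2 fold change of 1.14 ± 0.09 (SE, adjusted p = 7.87e-07).

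Further paternally expressed genes were higher at E7.5. Plagl1, a zinc finger transcription factor gene, was at 1.21, 0.863 and 0.280 TPM at E6.5 and at 12.5, 10.7 and 11.2 TPM at E7.5, a log2 difference of 2.84. Dlk1 was at 64.7, 50.02 and 55.8 TPM, a log2 fold change of 2.54 ± 0.13 (SE, adjusted p = 1.39e-08). Nnat was at 17.3, 7.47 and 9.93 and then 62.4, 72.01 and 66.7 TPM, a log2 fold change of 2.51 ± 0.26 (SE, adjusted p = 9.48e-06). Slc38a4 was at 11.05, 12.1 and 11.2 and then 39.9, 40.9 and 39.7 TPM, a log2 fold change of 1.73 ± 0.09 (SE, adjusted p = 1.2e-08), beside 36.3, 37.02 and 36.3 TPM at E3.5. Ndn was at 14.2, 16.7 and 15.4 TPM, a log2 fold change of 1.66 ± 0.14 (SE, adjusted p = 1.65e-06), while its neighbour Magel2 was at 4.79, 4.60 and 4.89 TPM and was not called, a log2 fold change of 0.18 ± 0.15 (SE, adjusted p = 0.331). Mest was at 77.9, 79.2 and 70.96 and then 168, 161 and 170.4 TPM, a log2 fold change of 1.12 ± 0.16 (SE, adjusted p = 1.05e-04), and Sgce at 5.93, 7.79 and 7.28 and then 16.9, 16.3 and 16.7 TPM, with a difference of 1.15. Meg3 and Mirg of the maternal chromosome, which had been lower at E6.5 (99.2, 118 and 77.1 TPM and 25.7, 23.5 and 24.1 TPM) than at E5.5 without a call, were at 231, 221 and 206 TPM and 55.7, 51.8 and 50.9 TPM at E7.5, with differences of 1.17 and 1.08. Peg13 and Peg12, both under 3 TPM at E6.5, reached 5.45 to 6.57 TPM and 2.24 to 2.84 TPM, and Peg13 was called.

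Snrpn was lower at E7.5 than at E6.5 in every library, from 179, 164 and 150.1 TPM to 86.3, 95.01 and 96.9 TPM, a log2 fold change of -0.82 ± 0.08 (SE, adjusted p = 9.78e-06). It passed the fold threshold on the rescaled values only (log2 fold change -1.18, adjusted p = 7.79e-07). Markers of other tissues moved in the same libraries, in both directions. Of 6 mesoderm markers 3 were higher at E7.5 (Hand1, T and Tbx6, the last above 2 TPM at E7.5 alone) and 3 lower (Mesp1, Mixl1 and Lefty2), with Hand1 going from 7.34 to 12.6 TPM to 77.7 to 84.5 TPM and the sum of the 6 from 150.4 to 195.6 TPM to 222 to 227 TPM. Of 6 tested trophectoderm markers 3 were higher and Elf5 was lower, with Cdx2 going from 3.52 to 6.18 TPM to 54.3 to 59.02 TPM and the sum of the 9 listed from 398 to 444 TPM to 805 to 845 TPM. The 9 primitive and visceral endoderm markers summed to 1112 to 1143 TPM and then 1120 to 1156 TPM. Of the 6 epiblast markers 5 were lower, and they went from sums of 1159 to 1230 TPM to sums of 355 to 383 TPM. What part these tissues had in the rise of imprinted genes was not tested.

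In the cultures, imprinted genes were most often highest in 2D EpiSCs, whose mean was the highest of the 4 for 25 of the 42 genes, 15 paternally and 10 maternally expressed. How many of all genes were highest in 2D EpiSCs was not counted. All genes, too, were more often called lower than higher in the other cultures, as given below. The level summed over the 42 genes was 4478 TPM in 2D EpiSCs, 2906 TPM in ESC-derived 3D EpiSCs, 3013 TPM in embryo-derived 3D EpiSCs and 2521 TPM in EpiLCs. A single limma fit of the 12 in vitro libraries tested 13378 genes, 34 members among them. Rtl1, Zim1, Peg12, Kcnq1ot1, Slc22a18, Airn, Rasgrf1 and Peg13 did not pass the filter in culture. The 3 comparisons with 2D EpiSCs use the same 3 control libraries and are set side by side.

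Against 2D EpiSCs, 13 of 34 tested members were lower and 1 was higher in ESC-derived 3D EpiSCs, with 8.36% of all genes lower and 0.703% higher. In embryo-derived 3D EpiSCs 13 were lower and 0 higher, against 7.77% and 2.21% of all genes; none was higher at an unadjusted p under 0.05 or with an intensity trend. In EpiLCs 15 were lower and 2 higher, against 13.7% and 5.59%. The 13 in ESC-derived 3D EpiSCs were 7 of 19 paternally and 6 of 15 maternally expressed genes, and the 13 in embryo-derived 3D EpiSCs were 11 and 2. The EpiLCs had 8 and 7. All genes had median log2 fold changes of -0.17, -0.07 and -0.13 in the 3 comparisons and the tested members of -0.54, -0.69 and -0.83. On rescaled values 11, 12 and 12 members were lower and 1, 0 and 2 higher. The split of all genes went from 94 higher and 1118 lower to 179 and 813 in ESC-derived 3D EpiSCs. It went from 295 and 1039 to 325 and 919 in embryo-derived 3D EpiSCs and from 748 and 1834 to 938 and 1447 in EpiLCs. Leaving out ESC-derived 3D replicate 1 or 2 took the 13 lower members of that culture to 9.

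Members of the Igf2-H19, Peg3, Peg10 and Plagl1 loci were lower than in 2D EpiSCs in each of the other cultures. Igf2 was at 39.6, 37.4 and 20.96 TPM in 2D EpiSCs, 2.10, 2.42 and 4.77 TPM in ESC-derived 3D EpiSCs, 6.94, 8.25 and 7.86 TPM in embryo-derived 3D EpiSCs and 1.16, 0.0297 and 0.127 TPM in EpiLCs. Its log2 fold changes against 2D EpiSCs were -3.04 ± 0.32 (SE, adjusted p = 7.1e-05), -1.91 ± 0.32 (SE, adjusted p = 0.00123) and -4.58 ± 0.32 (SE, adjusted p = 6.22e-07) in that order. Peg10 was at 183, 175 and 108 TPM in 2D EpiSCs, 19.4, 18.5 and 32.1 TPM and 15.5, 19.7 and 20.7 TPM in the 2 kinds of 3D EpiSCs and 77.4, 70.2 and 43.9 TPM in EpiLCs, and its differences were -2.69, -2.96 and -1.27 on the log2 scale. Peg3 was at 183, 185 and 147 TPM in 2D EpiSCs and between 28.9 and 58.8 TPM in the 9 other libraries, with differences of -2.07, -1.59 and -2.03. For Plagl1 the 2D libraries were at 5.72, 6.42 and 6.48 TPM and the 9 others between 1.39 and 3.13 TPM, with differences of -1.58, -1.23 and -1.18. For each of these 4 genes every 2D library stood above every other culture library.

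**Figure D3:**
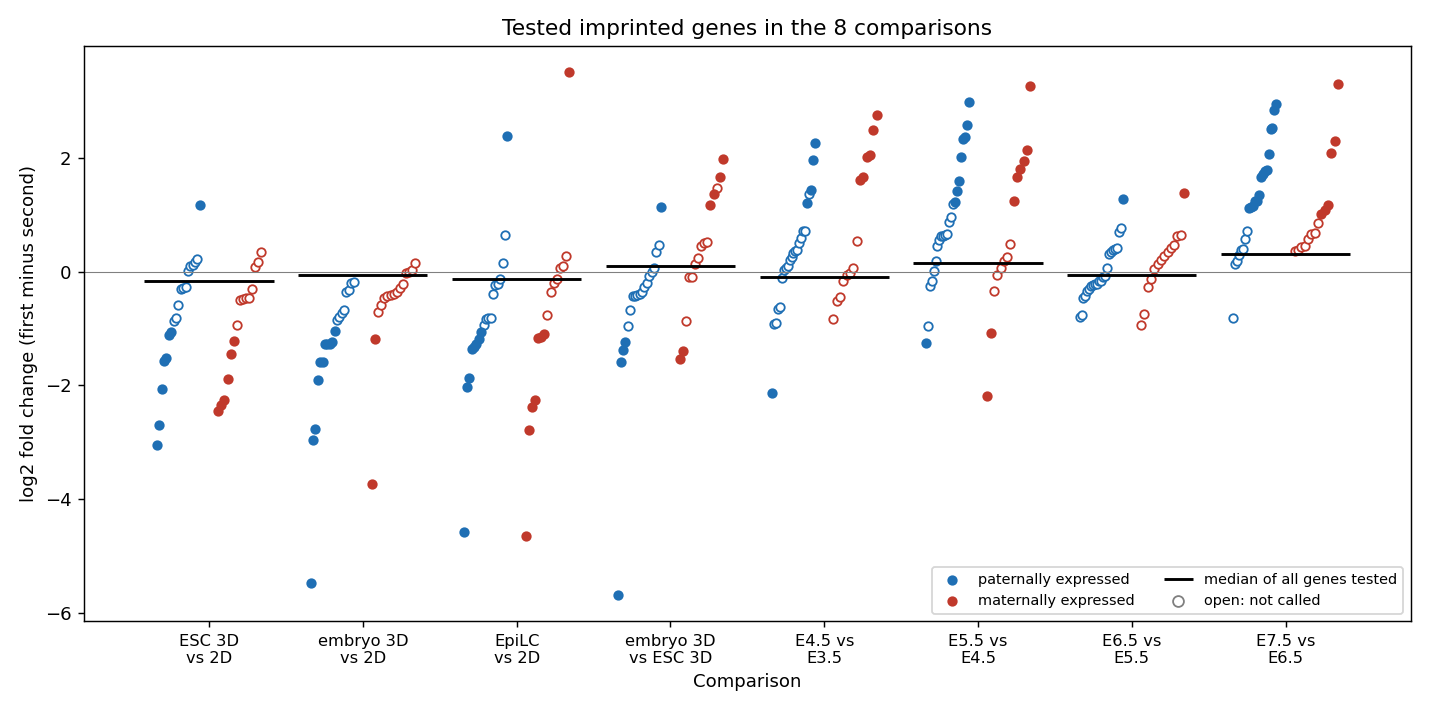
Log2 fold changes of the tested imprinted genes in the 8 comparisons (first minus second named group), with paternally expressed genes in blue, maternally expressed genes in red, called genes filled, uncalled genes open, and the median of all genes tested as a black bar. Called genes lie mostly below the bar in the comparisons with 2D EpiSCs and above it in the steps to E4.5, E5.5 and E7.5.

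H19 was low in every culture and lowest in embryo-derived 3D EpiSCs. It was at 21.6, 20.5 and 11.3 TPM in 2D EpiSCs, 10.7, 7.34 and 5.35 TPM in EpiLCs, 1.54, 1.74 and 5.62 TPM in ESC-derived 3D EpiSCs and 0.351, 0.409 and 0.320 TPM in embryo-derived 3D EpiSCs. The log2 differences from 2D EpiSCs were -2.34 ± 0.36 (SE, adjusted p = 6.66e-04) for ESC-derived and -3.74 ± 0.36 (SE, adjusted p = 2.45e-05) for embryo-derived 3D EpiSCs. The difference of EpiLCs, -1.09 ± 0.36 (SE, adjusted p = 0.0241), was lost without EpiLC replicate 2 (adjusted p = 0.0628) or 3 (0.0947) and without 2D replicate 1 (0.0877) or 2 (0.0803). Set beside these, the lowest of the 15 in vivo libraries had 346 TPM of H19, though by another library method.

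EpiLCs differed from 2D EpiSCs most in Grb10, at 16.2, 13.8 and 20.9 TPM against 573, 541 and 280.3 TPM, a log2 fold change of -4.65 ± 0.42 (SE, adjusted p = 4.73e-06). Gnas was at 199, 177 and 146 TPM against 864, 746 and 891 TPM, a log2 fold change of -2.26 ± 0.12 (SE, adjusted p = 8.74e-08). Osbpl5 was at 0.958, 0.776 and 0.381 against 11.01, 12.2 and 9.03 TPM, a log2 fold change of -2.79 ± 0.30 (SE, adjusted p = 1.76e-05), and Asb4 at 0.596, 0.512 and 0.706 against 7.58, 8.14 and 6.27 TPM, a log2 fold change of -2.37 ± 0.50 (SE, adjusted p = 0.00217). The EpiLC libraries lay below all 2D libraries for these 4 genes. Igf2r was at 19.8, 19.2 and 23.3 against 51.4, 51.5 and 40.4 TPM, a log2 fold change of -1.16 ± 0.24 (SE, adjusted p = 0.00189). Of the Snrpn-Ube3a cluster, Magel2 was at 4.25, 1.79 and 3.90 against 15.6, 15.2 and 12.2 TPM, a log2 fold change of -1.88 ± 0.27 (SE, adjusted p = 1.43e-04), and Ndn at 6.23, 4.34 and 5.03 against 12.4, 12.5 and 10.4 TPM, a log2 fold change of -1.05 ± 0.15 (SE, adjusted p = 1.7e-04), while Snrpn at 359, 385 and 337 against 406, 403 and 443 TPM was not called. The call of Ndn was lost without EpiLC replicate 2 (log2 fold change -0.95). Zdbf2, a paternal gene of chromosome 1 that acts on growth after birth, was at 25.3, 19.7 and 23.7 against 57.7, 59.7 and 63.7 TPM, a log2 fold change of -1.37 ± 0.11 (SE, adjusted p = 1.44e-06). Slc22a3, at 0.233, 0.0912 and 0.209 against 1.31, 1.73 and 1.82 TPM, was lower as well, a log2 fold change of -1.15 ± 0.12 (SE, adjusted p = 1.04e-05), though it was tested only because the ESC-derived 3D libraries exceeded 2 TPM.

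Dcn and Nap1l5 were the members called higher in EpiLCs. Dcn exceeded 2 TPM in the EpiLC libraries alone and so was tested only because it was high there, leaving 1 call, that of Nap1l5. Nap1l5 exceeded 2 TPM in ESC-derived 3D replicates 1 and 2 as well, but it would not have passed the filter without the EpiLC libraries. The call of Nap1l5 held with no filter on low values. Dcn, the gene of the matrix proteoglycan decorin, known to be imprinted in placenta, was at 12.03, 19.5 and 26.1 TPM in EpiLCs and between 0 and 1.29 TPM in the other 9 culture libraries, a log2 difference of 3.51 from 2D EpiSCs that is given without a test. The 6 fibroblast and stroma markers summed to 18.4 to 22.7 TPM in EpiLCs, 20.96 to 22.7 TPM in 2D EpiSCs, 12.3 to 16.7 TPM in ESC-derived and 7.23 to 8.41 TPM in embryo-derived 3D EpiSCs. Most of the EpiLC sum was Thy1, at 14.5 to 19.9 TPM against 11.7 to 12.5 TPM in 2D EpiSCs and not called. Col1a1 and Col1a2 were lower in EpiLCs, where Lum was at 0 and Col3a1 was at 0.0322 to 0.158 TPM. Col1a1 exceeded 2 TPM in the 2D EpiSC libraries alone and so was tested only because it was high there. The part of such cells in the level of Dcn was not tested. Nap1l5, a nucleosome assembly family gene, was at 8.31, 5.74 and 2.39 TPM in EpiLCs, 0.164, 0.251 and 0.0311 TPM in 2D EpiSCs and 2.55, 2.30 and 0.498 TPM in ESC-derived 3D EpiSCs, and it was listed at 0 in the 3 embryo-derived libraries, so no fold is given against them on the linear scale. The difference of EpiLCs from 2D EpiSCs was 2.38 ± 0.36 (SE, adjusted p = 2.19e-04). That of ESC-derived 3D EpiSCs, 1.18 ± 0.36 (SE, adjusted p = 0.024), was lost when any library of these 2 cultures but ESC-derived replicate 3 was left out (adjusted p from 0.0514 to 0.0931).

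The 2 kinds of 3D EpiSCs share medium and matrix and differ in source. Of 34 tested members, 5 were higher and 6 lower in embryo-derived than in ESC-derived 3D EpiSCs, beside 1.93% of all genes higher and 2.3% lower. Of the 6, Slc22a3 exceeded 2 TPM in the ESC-derived libraries alone and so was tested only because it was high there, which leaves 5. Among paternally expressed genes 1 was higher and 4 lower of 19, and among maternally expressed genes 4 were higher and 2 lower of 15. The median of all genes was 0.11 on the log2 scale. After rescaling, 5 members were higher and 7 lower, Mcts2 being the one added, and all genes went from 258 higher and 308 lower to 176 and 357. The number of higher members rests on few libraries: it was 2 without ESC-derived replicate 2, and 3 without ESC-derived replicate 1 or embryo-derived replicate 2 or 3. Some replicates lay closer together than others, and with ESC-derived replicates 1 and 2, embryo-derived replicates 2 and 3 and 2D replicates 1 and 2 averaged as 1 sample each, 0 members were higher and 3 lower. Of the 13030 genes tested in that setting, 106 were higher and 267 lower.

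Nnat showed the largest difference of all members in any comparison. It was at 0.839, 1.34 and 1.78 TPM in embryo-derived 3D EpiSCs, at 158, 159 and 62.6 TPM in ESC-derived 3D EpiSCs, at 104, 99.6 and 96.7 TPM in 2D EpiSCs and at 63.1, 51.7 and 42.01 TPM in EpiLCs. The 3 embryo-derived libraries stood far below all 9 others, with a log2 fold change of -5.68 ± 0.31 (SE, adjusted p = 6.21e-07) against ESC-derived 3D EpiSCs and of -5.47 ± 0.31 (SE, adjusted p = 5.21e-07) against 2D EpiSCs. Nnat (chr2:157560078-157562522, plus strand) lies within an intron of Blcap on the opposite strand, and Blcap was not called between the 3D cultures, at 38.4, 39.1 and 38.99 TPM against 26.7, 24.8 and 23.8 TPM, a log2 fold change of 0.61 ± 0.11 (SE, adjusted p = 0.0039). For comparison, the E5.5 epiblast, the stage from which these cultures came, had Nnat at 14.3, 12.8 and 14.03 TPM by the other library method.

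Impact and Slc38a4 were lower in embryo-derived 3D EpiSCs too. Impact, a paternally expressed regulator of translation on chromosome 18, was at 63.4, 45.9 and 45.9 TPM against 171, 162 and 137 TPM in ESC-derived 3D EpiSCs, a log2 fold change of -1.59 ± 0.17 (SE, adjusted p = 1.37e-04). Slc38a4 (chr15:96994820-97055956, minus strand) was at 35.4, 28.6 and 27.4 TPM against 66.2, 64.6 and 89.8 TPM, a log2 fold change of -1.24 ± 0.15 (SE, adjusted p = 4.04e-04), and the 2D EpiSCs had 200.3, 202 and 231 TPM. The maternally expressed organic cation transporter gene Slc22a3 was at 0, 0.192 and 0.270 TPM against 2.25, 2.24 and 2.51 TPM, a log2 difference of -1.54 that is given without a test. Against 2D EpiSCs the differences of the embryo-derived libraries were -1.58 for Impact, -2.76 for Slc38a4 and -1.18 for Slc22a3, and those of the ESC-derived libraries, of which that of Slc38a4 was called, were 0.01, -1.52 and 0.35. For these 3 genes the libraries of the 2 sources did not overlap. No library left out changed the calls of Impact and Slc38a4. Nap1l5, at 0 against 2.55, 2.30 and 0.498 TPM, had a log2 fold change of -1.38 ± 0.36 (SE, adjusted p = 0.0261), which was lost without ESC-derived replicate 1 (adjusted p = 0.0827) or 2 (0.102) or embryo-derived replicate 2 (0.0732) or 3 (0.0731). H19 had a log2 fold change of -1.40 ± 0.36 (SE, adjusted p = 0.0235) and lost its call without embryo-derived replicate 2 (adjusted p = 0.0637) or 3 (0.0715) or ESC-derived replicate 3 (log2 fold change -0.96).

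Mcts2, a paternally expressed retrocopy of Mcts1 that sits within the gene H13 on the same strand (chr2:152687035-152687946, plus strand), was at 30.7, 30.2 and 28.2 TPM in embryo-derived and 56.2, 58.8 and 60.2 TPM in ESC-derived 3D EpiSCs, at 41.9, 43.6 and 37.6 TPM in EpiLCs and at 54.6, 54.1 and 53.4 TPM in 2D EpiSCs. Its log2 fold change between the 3D cultures, -0.95 ± 0.09 (SE, adjusted p = 3.45e-05), was short of the fold threshold, and on rescaled values it was -1.07 (adjusted p = 1.42e-05). The host H13 was at 41.2, 35.01 and 34.4 TPM in embryo-derived and 20.6, 17.6 and 14.4 TPM in ESC-derived 3D EpiSCs, a log2 fold change of 1.04 ± 0.12 (SE, adjusted p = 2.82e-04), and at 16.4, 16.6 and 17.2 TPM in EpiLCs and 17.8, 17.7 and 19.1 TPM in 2D EpiSCs. Embryo-derived 3D EpiSCs were thus the lowest culture for Mcts2 and the highest for H13, without overlap with the other 9 libraries in either gene. Reads of Mcts2 may be shared with H13 and with other copies of Mcts1. Kcnq1ot1 was not tested in culture, and it was between 0.000637 and 0.00166 TPM in embryo-derived 3D EpiSCs and between 0.0906 and 0.398 TPM in the 9 others.

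**Figure D4:**
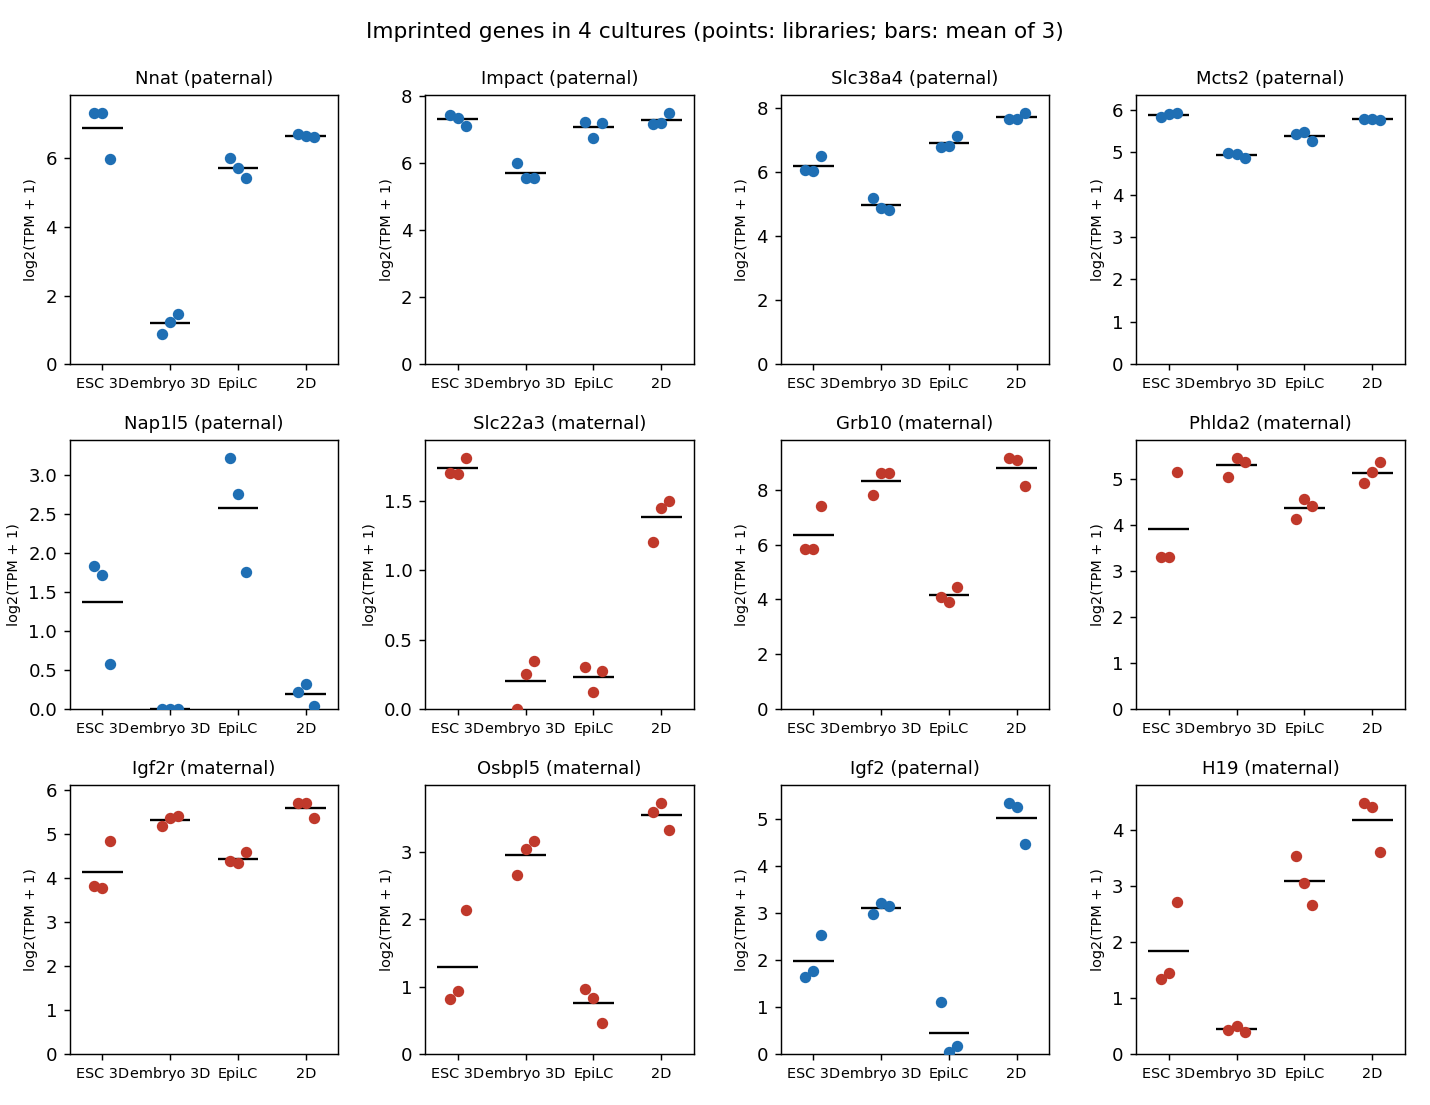
Levels of 12 imprinted genes in the 12 culture libraries, as log2(TPM + 1), with a point per library and a bar at the mean of 3, paternally expressed genes in blue and maternally expressed genes in red. Embryo-derived 3D EpiSCs are the lowest culture for Nnat, Impact, Slc38a4, Mcts2 and Nap1l5, and ESC-derived replicate 3 lies apart from replicates 1 and 2 for Grb10, Phlda2, Igf2r, Osbpl5 and H19.

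The members higher in embryo-derived 3D EpiSCs were Grb10, Osbpl5, Phlda2 and Igf2r, which are maternally expressed, and Igf2. Grb10 was at 220.4, 393 and 386 TPM against 55.6, 56.1 and 168 TPM in ESC-derived 3D EpiSCs, a log2 fold change of 1.99 ± 0.42 (SE, adjusted p = 0.0107). Osbpl5 was at 5.30, 7.24 and 7.96 against 0.757, 0.911 and 3.40 TPM, a log2 fold change of 1.66 ± 0.30 (SE, adjusted p = 0.00464). Igf2r was at 35.3, 40.5 and 41.3 against 13.1, 12.7 and 27.8 TPM, a log2 fold change of 1.17 ± 0.24 (SE, adjusted p = 0.00888), and its call was lost without ESC-derived replicate 2 (log2 fold change 0.98). Phlda2 was at 32.1, 42.9 and 40.1 against 8.92, 8.79 and 34.6 TPM with overlapping ranges, a log2 fold change of 1.37 ± 0.40 (SE, adjusted p = 0.0379). Igf2 had a log2 fold change of 1.14 ± 0.32 (SE, adjusted p = 0.0347). Against 2D EpiSCs the ESC-derived libraries were lower in Grb10, Osbpl5 and Igf2r, with differences of -2.44, -2.25 and -1.45, whereas -0.46, -0.59 and -0.28 in embryo-derived libraries were not called. The calls of Phlda2 and Igf2 were lost when any library of these 2 cultures but ESC-derived replicate 3 was left out (adjusted p from 0.0507 to 0.146 and from 0.0523 to 0.119). Asb4, at 2.26, 7.18 and 8.19 against 0.463, 0.350 and 4.72 TPM, was called only without ESC-derived replicate 3 (log2 fold change 2.15, adjusted p = 0.00192) or without embryo-derived replicate 1 (1.95, adjusted p = 0.0248).

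Endoderm markers were read in the same libraries. Of the 9 listed, 3 were tested between the 3D cultures, and Gata6 was called higher in embryo-derived cells. Sox17 (log2 fold change 1.74, adjusted p = 0.0582) and Gata4 (0.34, adjusted p = 0.409) were not called. Markers of other cell types moved as well. Of 3 tested mesoderm markers Mixl1 was higher in embryo-derived cells (2.09, adjusted p = 0.00113), and of 6 epiblast markers Sox2 was (1.03, adjusted p = 0.00445). Of 3 tested stroma markers 1 was lower, and of 5 tested trophectoderm markers 0 were called. In Grb10, Osbpl5, Igf2r, Phlda2, Igf2 and Asb4, ESC-derived replicate 3 was the highest of its group. The same library was the highest of its group in Gata6, at 0.0628, 0.118 and 5.42 TPM over the 3 ESC-derived libraries, beside 5.32, 9.25 and 9.57 TPM in embryo-derived 3D EpiSCs, 23.5, 24.02 and 17.1 TPM in 2D EpiSCs and 0.214, 0.143 and 0.227 TPM in EpiLCs. Sox17 was at 0.262, 0.235 and 6.73 TPM, 3.68, 7.21 and 10.7 TPM, 26.1, 24.3 and 24.7 TPM and 0.0815, 0.261 and 0.299 TPM in the same order. The 9 primitive and visceral endoderm markers summed to 0.712 to 13.5 TPM in ESC-derived and 10.5 to 21.99 TPM in embryo-derived 3D EpiSCs, 46.2 to 63.6 TPM in 2D EpiSCs and 1.52 to 2.08 TPM in EpiLCs, with Afp at 0 in embryo-derived 3D and 2D EpiSCs. The part of cells of any of these types in the levels of Grb10, Osbpl5, Igf2r, Phlda2, Igf2 and Asb4 was not tested.

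**Figure D5:**
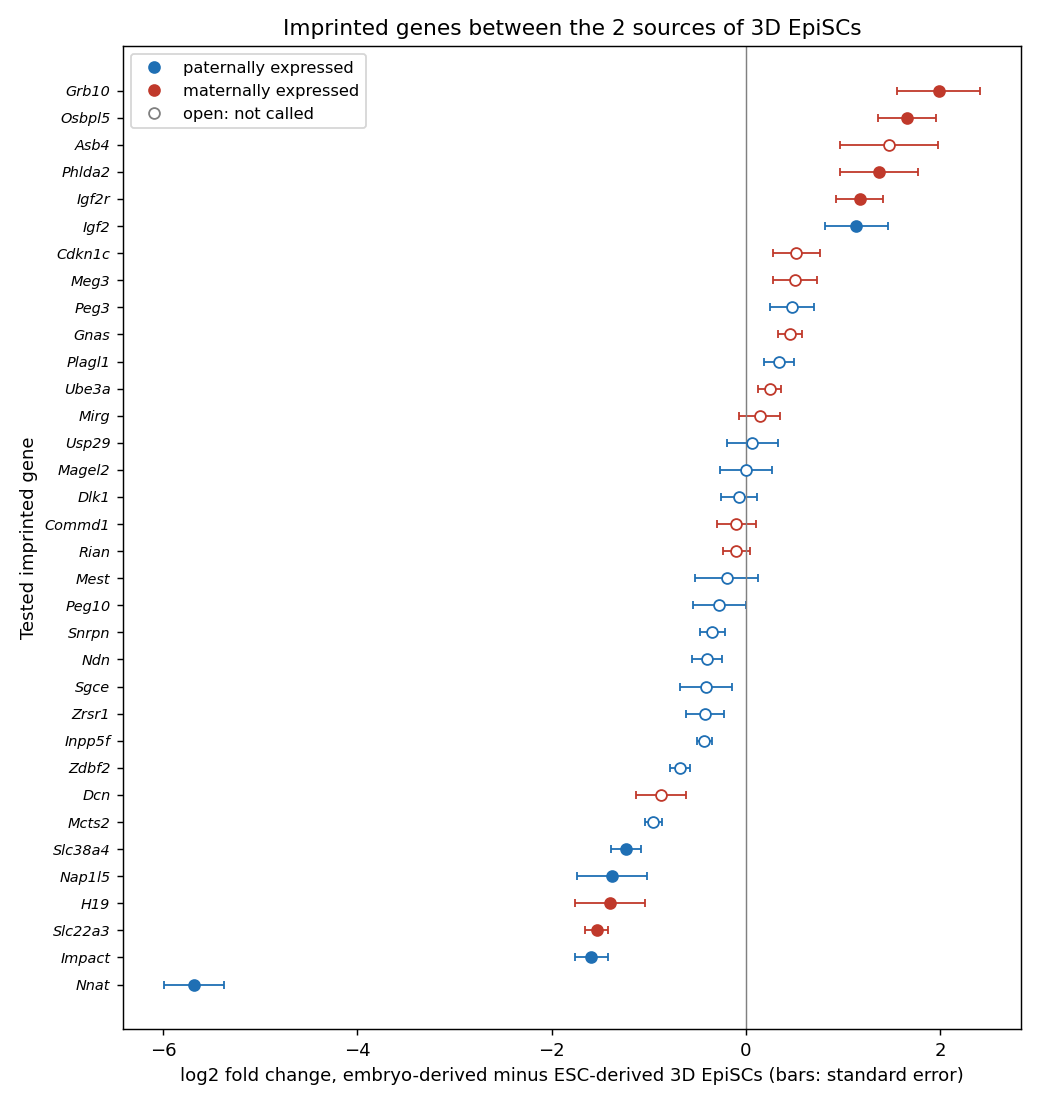
Log2 fold change of the 34 tested imprinted genes between embryo-derived and ESC-derived 3D EpiSCs (points, with bars of 1 standard error), ordered by size, with paternally expressed genes in blue, maternally expressed genes in red and uncalled genes open. Nnat stands alone at -5.68, and the 5 genes called higher lie between 1.14 and 1.99.

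Other calls against 2D EpiSCs concerned Mest, Usp29, Sgce and Zdbf2. Mest was at 418, 400.1 and 356 TPM in 2D EpiSCs, 175, 166 and 222 TPM in ESC-derived and 92.04, 211 and 219 TPM in embryo-derived 3D EpiSCs, with log2 differences of -1.06 ± 0.32 (SE, adjusted p = 0.0222) and -1.26 ± 0.32 (SE, adjusted p = 0.0117). The first was lost without ESC-derived replicate 1 or 2 or 2D replicate 1 or 2 (adjusted p from 0.0615 to 0.0736) and the second without embryo-derived replicate 1 (log2 fold change -0.86). Usp29 was at 11.3, 11.95 and 10.96 TPM in 2D EpiSCs, 3.88, 3.29 and 8.10 TPM in ESC-derived and 5.26, 5.04 and 4.81 TPM in embryo-derived 3D EpiSCs, with differences of -1.11 and -1.04, the first below the fold threshold without ESC-derived replicate 1 or 2 (-0.99 and -0.90). Both calls of Usp29 were also lost on rescaled values (log2 fold changes -0.95 and -0.97) and with close pairs of replicates averaged (adjusted p = 0.111 and 0.0839). Sgce was lower in embryo-derived 3D EpiSCs (3.15, 5.77 and 5.39 TPM) and in EpiLCs (5.36, 5.75 and 2.80 TPM) than in 2D EpiSCs (11.98, 11.7 and 14.5 TPM), with log2 differences of -1.28 and -1.32. Zdbf2 was at 26.3, 23.5 and 23.7 TPM in embryo-derived 3D EpiSCs, a log2 fold change of -1.27 ± 0.11 (SE, adjusted p = 9.45e-06). Phlda2 and Asb4 of ESC-derived 3D EpiSCs, with differences of -1.22 and -1.89, lost their calls without ESC-derived replicate 1 (adjusted p = 0.125 and 0.0552) or 2 (0.128 and 0.0577), and Phlda2 also without any single 2D library.

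The Dlk1-Meg3 non-coding RNAs, often silenced in cultured pluripotent cells, were present in all 12 culture libraries. Rian was between 509 and 876 TPM, Meg3 between 111 and 317 TPM and Mirg between 21.8 and 51.04 TPM, and none of the 3 was called in a comparison of cultures, although Meg3 of ESC-derived 3D EpiSCs (-0.94 against 2D EpiSCs) was called without ESC-derived replicate 3 (-1.02, adjusted p = 0.00832) or 2D replicate 3 (-1.10, adjusted p = 0.00824). Their paternal neighbours were low, Dlk1 between 0.940 and 4.94 TPM and Rtl1 at no more than 0.137 TPM.

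Of the 42 members, 7 were called in none of the 8 comparisons, namely Rtl1, Ube3a, Zrsr1, Commd1, Mcts2, Slc22a18 and Rasgrf1. How many of all genes were called in none was not counted, so this number is not set against them. Among the 7, Slc22a18 and Rasgrf1 passed the filter in neither fit and were tested in none of the comparisons. Rtl1 was not tested in the 4 between cultures. Ube3a was between 38.4 and 78.9 TPM over all 27 libraries and Commd1, a copper metabolism gene, between 36.3 and 74.8 TPM. Zrsr1, a splicing factor retrocopy within Commd1, was between 6.99 and 18.6 TPM. Slc22a18 and Rasgrf1, a transporter gene and the gene of a Ras exchange factor, did not exceed 1.78 and 1.65 TPM in any library. Rasgrf1 was at 0.792, 0.564 and 1.62 TPM at E3.5, 0.746, 0.359 and 1.65 TPM at E4.5 and 0.636, 0.811 and 0.973 TPM at E7.5, and between 0 and 0.424 TPM in culture. Mcts2 was at 20.1, 23.3 and 22.6 TPM at E3.5 and between 20.9 and 30.6 TPM at the later stages. A gene that was not called is not thereby shown to be equal between groups.

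Impact and Cdkn1c were each called in 1 part of the data and are given here for the other part. Gnas was called in vivo and in EpiLCs, as given above, and its levels in 3D EpiSCs are given here. Impact was at 8.16, 8.31 and 8.65 TPM at E3.5, 10.7, 10.2 and 12.6 TPM at E4.5, 17.5, 16.8 and 16.05 TPM at E5.5, 13.3, 13.5 and 15.2 TPM at E6.5 and 22.4, 25.6 and 22.9 TPM at E7.5, and no step passed the threshold. Gnas was at 556, 623 and 634 TPM in ESC-derived and 794, 884 and 812 TPM in embryo-derived 3D EpiSCs, neither of which was called against 2D EpiSCs, where it was at 864, 746 and 891 TPM. Cdkn1c was between 12.1 and 19.9 TPM in ESC-derived 3D, 20.96 to 22.9 TPM in embryo-derived 3D and 20.4 to 22.4 TPM in 2D EpiSCs and between 16.4 and 35.2 TPM in EpiLCs, with no call among cultures.

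Of 8 factors known to maintain imprints, Zfp57 and Dppa3 were called and the other 6 (Zfp445, Trim28, Setdb1, Dnmt1, Uhrf1 and Ctcf) were not, in any comparison. Zfp57 was at 174, 169 and 188 TPM at E3.5, 87.2, 85.4 and 111 TPM at E4.5 and 19.7, 19.3 and 20.8 TPM at E5.5, the last step with a log2 fold change of -2.18 ± 0.12 (SE, adjusted p = 1.46e-08). In culture it was at 24.6, 22.7 and 42.5 TPM in ESC-derived 3D EpiSCs, 62.1, 47.7 and 46.2 TPM in embryo-derived 3D EpiSCs and 65.5, 65.1 and 65.1 TPM in 2D EpiSCs, and lower in ESC-derived 3D than in 2D EpiSCs, a log2 fold change of -1.15 ± 0.23 (SE, adjusted p = 0.0028). Dppa3, which protects maternal methylation in the zygote, fell from 343, 388 and 333 TPM at E3.5 to 31.4, 35.8 and 35.1 TPM at E4.5, a log2 fold change of -3.34 ± 0.21 (SE, adjusted p = 5.88e-08), and was at 8.39, 6.82 and 10.3 TPM in EpiLCs and at no more than 0.0942 TPM in the other cultures. Methylation was not analysed here.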

How the data were processed

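Bulk RNA-seq of 27 libraries in 9 groups of 3 was used. Single-cell and bisulfite samples of the series were not analysed here. The authors deposited 1 table of TPM values for 54446 genes, aligned to mm10 with STAR and quantified with StringTie against GENCODE M19 after trimming with cutadapt 2.4. The 42 members and the gene lists were chosen by name with earlier results of these data known. Most members called at least once are given with the value of every library of the groups that the text compares. Some are given by range, such as Peg13 and Peg12 in vivo and Peg3 and Plagl1 in culture. Members without a call are mostly given by range. Biotypes came from GENCODE M21 and promoter windows from RefSeq.

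The authors tested counts with DESeq2. Here limma 3.58.1 in R 4.3.3 was fitted to log2(TPM + 1), without a trend, over autosomal genes above 2 TPM in at least 3 libraries, in 1 fit of 12 in vitro and 1 of 15 in vivo libraries, and was first tested on simulated data. Tests were two-sided with Benjamini-Hochberg adjustment over all genes tested, and calls needed an adjusted p under 0.05 and an absolute log2 fold change above 1, a scale that understates changes of low genes. TPM keep no depth, so no counting error is given. Alternatives were a pseudocount of 0.1, no filter, protein-coding genes only, rescaling by median-of-ratios factors, an intensity trend, a replicate block, averaging of close replicate pairs, fits of the compared groups alone, and leaving out each library.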

Additional observations from a re-analysis of the deposited data

Results flagged for a closer look

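For 11 members the 2 kinds of 3D EpiSCs were called as unlike in their difference from 2D EpiSCs. The calls rest on the direct test of embryo-derived against ESC-derived libraries, in which the 2D controls cancel. The 6 lower in embryo-derived 3D EpiSCs had log2 differences of -5.68 for Nnat, -1.59 for Impact, -1.54 for Slc22a3, -1.40 for H19, -1.38 for Nap1l5 and -1.24 for Slc38a4. The 5 higher had 1.99 for Grb10, 1.66 for Osbpl5, 1.37 for Phlda2, 1.17 for Igf2r and 1.14 for Igf2. Each was called by limma in 3 libraries a group (adjusted p under 0.05 over all genes), but Slc22a3 exceeded 2 TPM in the ESC-derived libraries alone, so it was tested only because it was high there and its value is a description. Phlda2, Igf2, H19, Nap1l5 and Igf2r lost their calls without certain single libraries, as given above. With close pairs averaged none of the 5 higher calls held, nor did those of H19 and Nap1l5. With only the compared groups fitted, Grb10, Phlda2 and Igf2r lost theirs, and H19 and Nap1l5 did not pass the filter and were not tested. With no filter on low values Phlda2 (adjusted p = 0.103), Igf2 (0.0928), H19 (0.0692) and Nap1l5 (0.0747) lost theirs. ESC-derived replicate 3 held the highest ESC-derived value of all 5 genes in the second set and of H19, and the lowest of Nnat, Impact and Nap1l5; whether its endoderm markers bear on these values was not tested.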

How the results depend on the processing

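Of 1703 recomputed log2 fold changes of single members, 1575 kept their direction and their side of the threshold, 90 lost the call, 33 gained one and 5 changed sign. All 5 were Rtl1 from E6.5 to E7.5, which was not called: -0.76 with a pseudocount of 0.1, -0.10 after rescaling, -0.60 and -0.41 without E7.5 replicates 1 and 3 and -0.04 without E6.5 replicate 1; E7.5 replicate 2 listed it at 0, and without that library the value was 1.42. The number of members higher in ESC-derived 3D than in 2D EpiSCs was 0 with no filter, with close pairs averaged and with only the compared groups fitted. Between the 3D cultures the number higher in embryo-derived cells was 3 with no filter, 2 with only the compared groups fitted and 0 with close pairs averaged, and the number lower was 3 with close pairs averaged. From E3.5 to E4.5 the number lower was 4 with a pseudocount of 0.1 and 0 among protein-coding genes, since Airn is non-coding. From E6.5 to E7.5 the number lower was 1 after rescaling. The cause was not tested for the other changes.

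With 1 library left out, members called higher and lower ranged from 0 to 1 and from 9 to 15 for ESC-derived 3D against 2D EpiSCs, from 12 to 13 lower for embryo-derived 3D against 2D EpiSCs, from 1 to 2 and from 13 to 17 for EpiLCs against 2D EpiSCs, and from 2 to 6 and from 4 to 6 between the 3D cultures. Without any 1 EpiLC library Dcn was not tested, since it passed 2 TPM in only 2 libraries, and the same held for Slc22a3 without an ESC-derived 3D library and for Zim1, Plagl1 and Peg12 without an E7.5 library. In vivo the ranges were from 10 to 11 and from 1 to 2 at E4.5, from 14 to 16 and from 2 to 4 at E5.5, and from 17 to 21 higher at E7.5.

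Averaging close pairs counted ESC-derived 3D replicates 1 and 2, embryo-derived 3D replicates 2 and 3 and 2D replicates 1 and 2 as 1 sample each, whose median absolute log2 differences were 0.069, 0.060 and 0.074. Replicate numbers did not pair the libraries, since the deviations of same-numbered libraries had mean correlations of 0.016 in vitro and -0.030 in vivo. A fit with a replicate block ended only the call of Igf2 between the 3D cultures (adjusted p = 0.0521), leaving 4 members higher in place of 5.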

Other observations

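A further 40 genes known as imprinted in mouse, many of them in placenta or brain alone, were looked up by name, and 24 of them were tested in culture and 21 in vivo. Against 2D EpiSCs, 4 of the 24 were lower in ESC-derived 3D EpiSCs (Ddc, Sfmbt2, Ascl2 and Cd81), 2 were lower in embryo-derived 3D EpiSCs (Ddc and Atp10a), and in EpiLCs 3 were lower (Blcap, Calcr and Ascl2) and 4 higher (Smoc1, Jade1, Gab1 and Ampd3, the last of which exceeded 2 TPM in EpiLCs alone). Over all genes tested the shares lower and higher were 8.36% and 0.703%, 7.77% and 2.21%, and 13.7% and 5.59% in the same order. Calcr, the calcitonin receptor gene next to the Peg10 cluster, was at 4.58, 2.32 and 4.81 TPM in EpiLCs and at 47.2, 50.4 and 64.01 TPM in 2D EpiSCs, a log2 fold change of -3.52 ± 0.21 (SE, adjusted p = 1.43e-07). Gab1, an adaptor of receptor tyrosine kinases, was at 162, 172 and 164 TPM in EpiLCs against 22, 20.3 and 21.3 TPM, a log2 fold change of 2.91 ± 0.08 (SE, adjusted p = 6.24e-10). In both genes the EpiLC libraries did not overlap the 2D libraries.

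In vivo, 2 of the 21 fell from E3.5 to E4.5 (Copg2 and Herc3), 3 rose and 4 fell from E4.5 to E5.5, Plg rose from E5.5 to E6.5, and 2 rose (Smoc1 and Casd1) and 1 fell (Atp10a) from E6.5 to E7.5. Over all genes tested the shares lower and higher were 12.1% and 5.63%, 9.2% and 13.7%, 1.22% and 0.756%, and 1.99% and 12.9% in the same order. Herc3, within which Nap1l5 lies, was at 9.92, 7.27 and 11.5 TPM at E3.5, 2.19, 1.51 and 3.22 TPM at E4.5 and 16.2, 17.4 and 16.5 TPM at E5.5, with log2 fold changes of -1.69 ± 0.19 (SE, adjusted p = 9.35e-06) and 2.45 ± 0.19 (SE, adjusted p = 2.18e-07). Cobl, a gene beside Grb10 that encodes an actin nucleator, went from 24.1, 25.4 and 18.6 TPM at E4.5 to 3.43, 3.26 and 3.07 TPM at E5.5, a log2 fold change of -2.47 ± 0.16 (SE, adjusted p = 3.95e-08), over the same step as the rise of Grb10. Sfmbt2, a Polycomb group gene needed in trophoblast, went from 55.1, 48.3 and 50.1 to 13.7, 14.5 and 16.03 TPM, a log2 fold change of -1.73 ± 0.09 (SE, adjusted p = 4.9e-09). The trophectoderm markers fell in sum over this step as given above, and their part in the values of Cobl and Sfmbt2 was not tested.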
